A study of Mus musculus with 8 samples.

Results

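The cytosolic ribosomal protein genes encode the protein part of the ribosome, and 81 of the 34478 genes in the deposited table were taken as such. They were chosen by symbol alone, as every gene named Rpl or Rps with a number and at most one closing letter (a, x or l), together with Rplp0, Rplp1, Rplp2 and Rpsa. Of the 81 genes, 76 were core genes, 30 for the small 40S subunit and 46 for the large 60S subunit. The other 5 (Rpl3l, Rpl6l, Rpl10l, Rps27l and Rps4l) are called paralogs here, that is, further copies with a name of their own. Of them, Rpl6l and Rps4l are annotated as pseudogenes, without a coding transcript. A mean of at least 10 normalized counts over the 8 libraries was reached by 78 of the 81 genes, including all 76 core genes, and the 3 below it were Rpl3l, Rpl6l and Rpl10l.

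Each ribosome needs its core proteins in fixed proportion, and free ribosomal proteins are degraded, so cells make the mRNAs of these genes in large and similar amounts. Many of these mRNAs begin with a run of pyrimidines at the 5′ end, the terminal oligopyrimidine (TOP) motif, through which the mTOR pathway and the RNA-binding protein Larp1 control their translation. Growth signals through the kinases MEK and ERK feed into ribosome production at several steps, among them Myc, RNA polymerase I and the kinases of Rps6.

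The samples were 4 primary cell lines from pancreatic ductal adenocarcinoma (PDAC) of a genetically engineered mouse model, numbered #1, #3, #5 and #10. All of them, controls included, carried the alleles Ptf1awt/Cre and Trp53loxP/loxP, in which Cre expressed from the pancreatic Ptf1a locus deletes Trp53. Each line was treated with trametinib, an inhibitor of MEK, for 48 h at that line's own half-maximal inhibitory dose (group MEKi), or with the solvent DMSO as control (group DMSO). There was 1 library per line and treatment, and the doses differed between lines. The spread in the tests below is therefore how much the change with MEKi varied between lines, except where the block for lines was left out.

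Library totals were 30680091 to 36385719 normalized counts, which from the step between low values corresponds to about 29300000 to 46000000 reads and puts 3 reads at 2.32 to 3.72 normalized counts. The cells had the keratins of ductal epithelium: the summed level of 6 epithelial markers was 220830 to 347527 with DMSO and 112420 to 220764 with MEKi, although Epcam was listed at 0 in every library outside line #3. Markers of other cells were low. The acinar marker Cpa1 and the fibroblast marker Lum were at 0 in all libraries, 5 acinar markers summed to at most 21.6, and 5 leukocyte markers to 145 to 231 with DMSO and 227 to 509 with MEKi. The 7 fibroblast markers summed to 83.5 to 351 with DMSO and 417 to 1243 with MEKi, where Col1a1 stood at 360.4 to 1110.1 against 30.1 to 130.3 with DMSO. The other fibroblast markers tested, Col3a1, Dcn and Pdgfra, were not called. They changed by 0.53, -0.0087 and 0.10 on the log2 scale, with adjusted p of 0.64, 0.99 and 0.91 in limma. The 3 endothelial markers summed to 14.5 to 47.3 with DMSO and 25.9 to 70.3 with MEKi. The part of these shifts in the results below was not tested. Of 10 transcripts known to follow MEK activity, such as Dusp6 and Etv4, all 10 fell with MEKi in limma, against 25.6% of all genes. In RNA from whole cultures, fewer cells of a kind and less RNA per cell cannot be told apart.

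MEKi lowered the share of the transcriptome held by ribosomal protein genes in each line. In the DMSO libraries the 81 genes held 3.91%, 4.53%, 4.27% and 4.43% of the library total in lines #1, #3, #5 and #10, a mean of 4.29% ± 0.27 (SD, n = 4). In the MEKi libraries they held 2.54%, 1.63%, 2.49% and 2.67%, a mean of 2.33% ± 0.48 (SD, n = 4). The groups did not overlap, and on the rows as listed line #3 had both the highest share with DMSO and the lowest with MEKi. The ratio of the MEKi to the DMSO share was 0.65, 0.36, 0.58 and 0.60 in lines #1, #3, #5 and #10, and that of the summed normalized counts was 0.60, 0.33, 0.53 and 0.55. The ratios of the summed counts were 0.60, 0.33, 0.53 and 0.55 also when near-identical copies of the genes elsewhere in the genome were added. With these copies, line #10 had the highest share with DMSO, 5.55% against 5.21% in line #3. Line #3 still had the lowest share with MEKi, 1.88%.

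**Figure D1:**
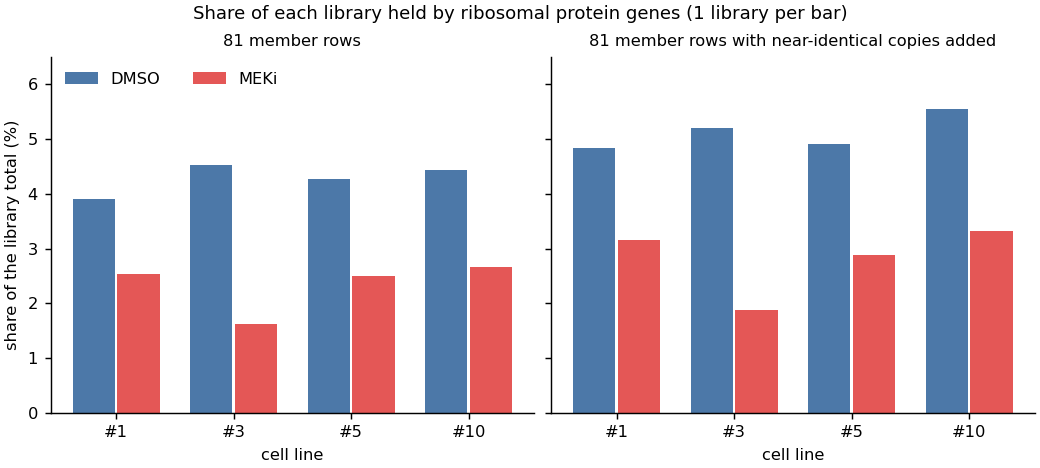
Share of each library total (y axis, percent) held by the 81 ribosomal protein genes in the 4 cell lines (x axis), with DMSO in blue and MEKi in red and 1 library per bar. The left panel takes the rows as listed and the right panel adds their near-identical copies, which raises every bar, while the drop in each line stays, from 4.53% to 1.63% in line #3 on the left.

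Tested across all genes, MEKi lowered 77 of the 78 genes tested and raised none (limma, line as block, adjusted p under 0.05). Among all 15888 genes tested, 25.6% were lower and 27.3% higher. The exception was the paralog Rps4l. All 76 core genes were lower, with adjusted p of 0.00073 to 0.0072 in limma. The median log2 fold change was -1.03 over the 78 genes, against 0.07 over all genes tested, which leaves the typical gene at 49.1% of its DMSO level. A fall of at least 2-fold was found for 43 of the 78, against 8.62% of all genes. This count rests on line #3: it was 6 without that line, against 6.62% of all genes, and 50 to 57 without one of the other lines. For 72 of the 78, 71 of them core genes, every MEKi library lay below every DMSO library, which held for 16.2% of all genes.

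Both subunits were lower throughout. The median core gene of the 40S subunit was left at 48.8% of its DMSO level and that of the 60S subunit at 49.8%. Log2 fold changes ran from -1.93 (Rps27) to -0.81 in the 40S subunit and from -1.30 (Rpl14) to -0.77 (Rpl5) in the 60S subunit. Proteins shared by the ribosomes of all domains of life had medians of -1.03 (15 genes of the 40S subunit) and -0.94 (18 genes of the 60S subunit), and the other core genes had medians of -1.04 (15 genes) and -1.03 (28 genes). The 29 core genes that hold small nucleolar RNA genes inside them, mostly in introns, had a median of -1.03, the same as the 47 without. The 4 core genes on chromosome X had a median of -0.92. No test was run between these subsets.

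Direction was the same in every line, and size was not. Of the 78 genes tested, 77 were lower in 4 of 4 lines, against 30.9% of all genes. The median log2 fold change of the 77 genes called lower was -0.73 in line #1, -1.55 in line #3, -0.89 in line #5 and -0.87 in line #10. Line #3 gave the most negative change for 76 of the 77 (98.7%), and Rpl5 was the exception. Line #3 was also the most negative line for 67.3% of the 3998 other genes called lower, at a median of -1.01. Without line #3, 77 members were still lower, with a median of -0.85 over the 78. With 1 library per line and treatment, the line and its MEKi library cannot be told apart here.

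**Figure D2:**
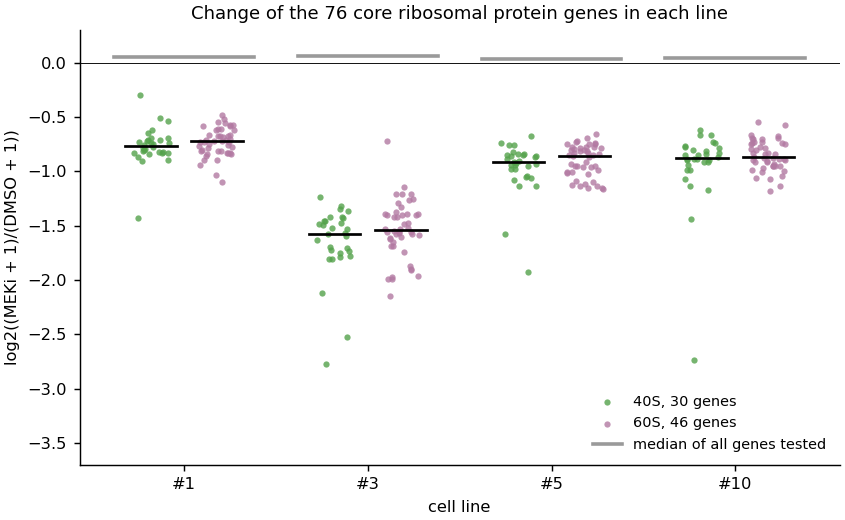
Change of each of the 76 core genes, as log2((MEKi + 1)/(DMSO + 1)) (y axis), in the 4 cell lines (x axis), with 40S genes in green, 60S genes in purple, black bars at their medians and a gray bar at the median of all genes tested. Each point is 1 gene from 1 pair of libraries. All points lie below 0, the clouds of both subunits overlap, and line #3 lies lowest, with 40S and 60S medians of -1.57 and -1.54.

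The 5′ ends of these genes were read from RefSeq (GRCm38.p6), in which 59 of the 81 genes, 56 of them core, had a start site. The sequences below are shown because a pyrimidine run at the start is one known link between such mRNAs and growth signaling. Each covers 15 bases before and 15 after the annotated start, in transcript direction, with the pyrimidine run that begins at the first transcribed base in capitals. Rps6 lies at chr4:86857353-86857382 on the minus strand, Rplp2 at chr7:141447636-141447665 on the plus strand, Rpl14 at chr9:120571502-120571531 on the plus strand, Rps27 at chr3:90213634-90213663 on the minus strand, Rpl38 at chr11:114668565-114668594 on the plus strand and Rpl15 at chr14:18270972-18271001 on the minus strand.
Rps6: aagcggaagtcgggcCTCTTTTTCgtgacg
Rplp2: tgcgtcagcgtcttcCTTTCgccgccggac
Rpl14: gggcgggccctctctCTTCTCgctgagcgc
Rps27: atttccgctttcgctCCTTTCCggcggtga
Rpl38: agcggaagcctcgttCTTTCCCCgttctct
Rpl15: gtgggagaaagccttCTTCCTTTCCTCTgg

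A start at C followed by at least 4 bases of C or T was annotated for 12 of the 56 core genes (21.4%), against 2.49% of the 27025 genes in the RefSeq table. The letters CTTTC were searched in transcript direction. They lay between 10 bases before and 20 after the start in 23.2% of the core genes, against 3.66% of all genes. Within 50 bases on either side they lay in 51.8%, against 12.6%. These searches overlap, since CTTTC can lie inside the run at the start. Annotated starts can be some bases away from those used in these cells, so the counts describe the annotation only. Core genes with and without the run at the start had medians of -0.98 (12 genes) and -1.03 (44 genes). Those with CTTTC within 50 bases had a median of -1.03 (29 genes) and those without it -0.98 (27 genes).

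Within the 40S subunit, Rps6, the ribosomal protein phosphorylated by the S6 kinases, fell from 19075, 18314, 19024 and 18753 normalized counts (DMSO, lines #1, #3, #5 and #10) to 10789, 6391, 10632 and 10083 with MEKi. The groups did not overlap, and line #3 with MEKi was the lowest library. The log2 fold change was -1.02 (SE 0.14, adjusted p = 0.0013 in limma). Rps3, which forms part of the channel where mRNA enters, changed by -0.92, and Rpsa, which sits near the mRNA exit and also serves as a laminin receptor, by -1.04. Rps14 and Rps19, whose loss of one copy is known to cause anemia in humans, changed by -0.90 and -1.03. Rps27a, made as a fusion with ubiquitin, fell from 18006 to 25079 normalized counts with DMSO to 7165 to 13598 with MEKi, by -1.10 on the log2 scale. The X-linked Rps4x changed by -0.96. Each of these 40S genes was lower in 4 of 4 lines, with adjusted p of at most 0.0055 in limma.

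In the 60S subunit, Rpl5 and Rpl11 bind the 5S rRNA and, outside the ribosome, the p53 inhibitor Mdm2. Rpl11 stood at 15963, 16229, 17690 and 19164 normalized counts (DMSO, lines #1, #3, #5 and #10), and at 9679, 5405, 8824 and 10227 with MEKi. It fell by 1.05 on the log2 scale (SE 0.15, adjusted p = 0.0015 in limma). Rpl5 went from 3277, 3317, 2952 and 3031 to 1536, 2012, 1822 and 2037. As listed, this was the smallest fall of all core genes, at -0.77 (SE 0.11, adjusted p = 0.0015 in limma). Rpl5 was also the only core gene most negative in line #1. Most of the normalized counts of Rpl5 sat on a copy, as given further on.

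Rpl3 and Rpl4 shape the peptidyl transferase center and the exit tunnel, and changed by -1.11 and -0.95 on the log2 scale. Rpl39, a small protein of the tunnel, and Rpl10, which joins the 60S subunit last, changed by -0.88 and -0.77. Rpl22, needed for T cell development, changed by -1.05, Rpl26, a binder of p53 mRNA, by -0.94 and Rpl38, needed for translation of some Hox mRNAs, by -0.82. Rpl13a, which also silences inflammatory mRNAs once released from the ribosome, changed by -0.89. Rpl41, one of the smallest proteins known, had 24799.9 to 28469.5 normalized counts with DMSO and 14048, 6446, 14165 and 12994 with MEKi in lines #1, #3, #5 and #10, and changed by -1.22 (SE 0.22, adjusted p = 0.0040 in limma). All of these 60S genes were called lower, with adjusted p of at most 0.0045 in limma.

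The stalk of the 60S subunit, made of Rplp0, Rplp1 and Rplp2 on a base of Rpl12, recruits the GTPases of translation. Its 4 genes had a median log2 fold change of -1.13, and -1.22 with near-identical copies added. Rplp0 stood at 80794, 94878, 89469 and 48930 normalized counts (DMSO, lines #1, #3, #5 and #10), and at 49033, 23873, 41913 and 21584 with MEKi. The groups overlapped for Rplp0 because line #10 with DMSO was below line #1 with MEKi. The fall was found in each line all the same, with a log2 fold change of -1.25 (SE 0.20, adjusted p = 0.0027 in limma). Rplp1 changed by -1.20 and Rplp2 by -0.98, and neither overlapped between groups.

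As listed, the largest falls were those of Rps27, Rps12, Rpl14, Rpl36 and Rplp0. With near-identical copies added, Rps27 instead had the smallest fall of the core genes, a log2 fold change of -0.69. Rps27 stood at 376, 797, 449 and 1244 normalized counts with DMSO and at 306, 116, 117 and 186 with MEKi, a log2 fold change of -1.93 (SE 0.40, adjusted p = 0.0072 in limma). Line #1 hardly moved, at -0.29, while lines #3, #5 and #10 changed by -2.77, -1.93 and -2.74. Rps12 went from 3065, 2456, 2754 and 2436 to 1137, 426, 923 and 901, a log2 fold change of -1.74 (SE 0.19, adjusted p = 0.00076 in limma), with no overlap. Both are 40S proteins at low listed levels, and a single other row held at least 90.2% of each of their families in every library, as given with the copies. Rpl14 and Rpl36, proteins of the 60S surface, had log2 fold changes of -1.30 (SE 0.17) and -1.26 (SE 0.16), with adjusted p of 0.0013 and 0.0011 in limma.

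**Figure D3:**
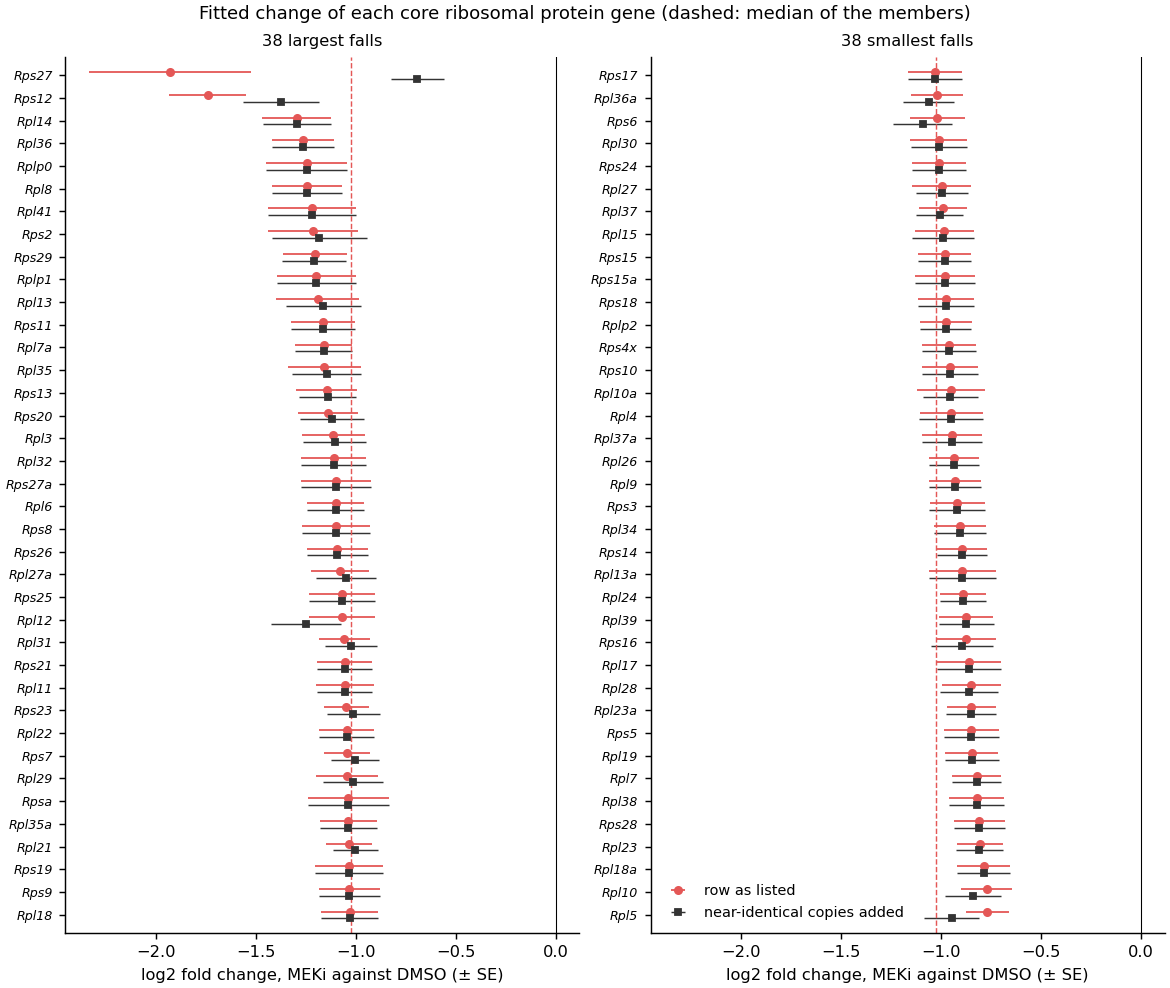
Log2 fold change of MEKi against DMSO (x axis, bars ± SE, n = 4 lines) for each of the 76 core genes, ordered by size over both panels, with the row as listed as red circles and with near-identical copies added as dark squares. The dashed line is the median of the members tested, -1.03. Rps27 and Rps12 stand farthest to the left as listed. With copies added Rps27 moves to -0.69.

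The core genes lay close to each other. Of the 76 core genes, 70 departed by at most 0.25 on the log2 scale once each library was centred on the median of the members. The SD of the fitted log2 fold change over the core genes was 0.18, against 1.05 over all genes. When each library was centred on the median of the members, only Rps27 (departure -0.94, adjusted p = 0.034 in limma) and Rps12 (departure -0.76, adjusted p = 0.0023) were lower than the rest, and none was higher. On that scale 2.75% of all genes were lower and 72.4% higher, so the count of 2 among 78 is near the share of all genes. With copies added and libraries centred again on the median of the members, 73 of 76 core genes departed by at most 0.25. The departures of Rps27 and Rps12 became 0.34 (adjusted p = 0.062 in limma) and -0.34 (adjusted p = 0.068). The 1 member called was then the paralog Rps4l, which was higher (departure 1.181, adjusted p = 0.042 in limma), as were 73.6% of all genes on that scale, and which had few reads in lines #3 and #10.

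Of the paralogs, 2 were high enough to test. Rps27l, a paralog of Rps27 known as a p53 target, was expressed in all lines, at 2851, 3041, 3177 and 2242 normalized counts (DMSO, lines #1, #3, #5 and #10), and at 1747, 995, 2099.9 and 1378 with MEKi. It fell by 0.90 on the log2 scale (SE 0.18, adjusted p = 0.0054 in limma), within the range of the core genes. Rps4l, a retrogene close to Rps4x, was present in some lines only: 802, 4.82, 3603 and 0 with DMSO, and 545, 7.06, 1746 and 2.25 with MEKi. It was lower with MEKi in lines #1 and #5, at -0.55 and -1.04, and near the level of 3 reads in lines #3 and #10, so that its fitted change was 0.14 (SE 0.45, adjusted p = 0.81 in limma).

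Rpl3l, known from heart and skeletal muscle, was listed at 1.04, 3.91, 2.42 and 4.56 with DMSO and at 0, 0, 0.54 and 3.69 with MEKi. Rpl10l, known from testis, was at 7.74 in line #1 with DMSO and 0.97 with MEKi, and at 0 in the other lines. Rpl6l was between 0 and 9.24 in all libraries. These 3 were too low for a test. No core gene was listed at 0 in any library.

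With DMSO, the core genes varied less between lines than the median gene. The median coefficient of variation over the 4 DMSO libraries was 11.8% for the core genes, against 22.8% for all genes tested and 15.4% for the 1385 other genes with a mean of at least 5000. With MEKi it was 26.0% for the core genes, 26.8% for all genes and 21.5% for those 1385. The SD of the change over the 4 lines had a median of 0.37 on the log2 scale for the core genes, against 0.32 for all genes and 0.21 for the 1385. Differences between lines, tested with a moderated F test in limma with treatment in the model, were called for 8 of 78 members (10.3%), against 27.6% of all genes. The 8 were Rps2, Rps4l, Rps7, Rpl24, Rpl29, Rps4x, Rpl36a and Rpl35a, with adjusted p from 0.00025 (Rps2) to 0.048 (Rpl35a). Leaving out line #3 raised the count to 28 of 78, against 27.5% of all genes, and leaving out line #1, #5 or #10 lowered it to 4, against 12.6%, 14.7% and 12.2% of all genes. Among those without a large copy, Rpl24 stood at 16604, 11469.9, 16326 and 19007 normalized counts (DMSO, lines #1, #3, #5 and #10), lowest in line #3.

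For several genes these line differences ran against those of a near-identical copy elsewhere in the genome. Copies were found by aligning each coding sequence to the annotated GENCODE M21 transcripts (GRCm38), whatever their level in these libraries. For 68 of the 81 genes, 401 other rows had at least 95% identity over at least 80% of the coding sequence. Most are processed pseudogenes, that is, reverse-transcribed mRNAs without introns. Of the 58 copies that passed the filter, 35 were lower with MEKi and 0 were higher, with a median log2 fold change of -0.99 in limma, against 25.6% lower and 27.3% higher of all genes tested. Since reads from identical stretches fit both places, the split between a gene and its copy is uncertain, while their sum does not depend on it.

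Rps2 was the clearest case. It stood at 754, 78022, 77308 and 1104 normalized counts (DMSO, lines #1, #3, #5 and #10), and at 490.3, 17926, 37400.3 and 525 with MEKi. Its copy Rps2-ps10, annotated as a processed transcript, stood at 81459, 339.8, 223 and 107914 with DMSO, and at 52096, 95.4, 152 and 57046 with MEKi. The copy thus held 98.8% of the family in lines #1 and #10 and 0.43% and 0.29% in lines #3 and #5, with DMSO. Added up, the family had 82419.5, 78510.2, 77663 and 109254 normalized counts with DMSO, so that the span of the line means shrank from 6.46 to 1.08 on the log2 scale and the adjusted p for line differences rose from 0.00025 to 0.14 in limma. Rps2 was lower with MEKi within every line, at -0.62, -2.12, -1.05 and -1.07, but without the block its adjusted p was 0.69.

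Rpl3, Rps7 and Rpl29 are shown by sequence beside their copies, since their coding sequences differ at a few single bases. The untranslated parts were not compared. Each pair is a stretch of 60 coding bases aligned without gaps, with the differing bases in capitals (GENCODE M21, GRCm38, in coding direction). Rpl3 and Rpl3-ps1 differ at 2 of 1209 coding bases, Rps7 and Gm6472 at 3 of 582, and Rpl29 and Gm13841 at 3 of 480. The stretches lie at chr15:80082523-80082582 on the minus strand for Rpl3, chrX:13202575-13202634 on the plus strand for Rpl3-ps1, chr12:28635595-28635654 on the minus strand for Rps7, chrX:152910061-152910120 on the minus strand for Gm6472, chr9:106430308-106430367 on the plus strand for Rpl29 and chr5:115802063-115802122 on the minus strand for Gm13841.
Rpl3: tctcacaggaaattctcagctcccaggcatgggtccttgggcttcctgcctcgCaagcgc
Rpl3-ps1: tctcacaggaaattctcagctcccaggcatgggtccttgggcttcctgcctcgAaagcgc
Rps7: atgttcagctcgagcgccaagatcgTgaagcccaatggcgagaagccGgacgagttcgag
Gm6472: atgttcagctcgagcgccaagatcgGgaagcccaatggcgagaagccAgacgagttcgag
Rpl29: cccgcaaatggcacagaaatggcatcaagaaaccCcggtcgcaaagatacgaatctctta
Gm13841: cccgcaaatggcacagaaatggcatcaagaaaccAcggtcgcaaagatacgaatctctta

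Rpl3-ps1 was high in line #1 alone, with 14312 normalized counts with DMSO and 8208 with MEKi, against at most 20.1 in the other 6 libraries. Rpl3 itself was lowest in that line with DMSO, at 26355 against 42372, 45917 and 48715 in lines #3, #5 and #10. Gm6472 and Rps7 mirrored each other: Rps7 stood at 9060.2, 8248, 15987 and 5961 with DMSO in lines #1, #3, #5 and #10, and Gm6472 at 10876, 8452, 3048 and 18434. The sum differed less between lines than Rps7 alone, with spans of the line means of 0.75 and 1.52 on the log2 scale and adjusted p of 0.056 and 0.0059 in limma. Gm13841 stood at 6.92, 2827, 3581 and 3248 with DMSO, nearly absent in line #1, where Rpl29 was highest (14951, against 7971, 9254 and 8662). With the copy added, the adjusted p of Rpl29 rose from 0.022 to 0.066.

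Rplp0 showed part of the same picture in line #10, where it was lowest with DMSO. Its copies Gm8730 and Gm9625 had 10584 and 4748 normalized counts with DMSO in that line, and at most 14.7 and 48.4 in the DMSO libraries of the others. With all copies added, line #10 was still the lowest with DMSO, at 64268 against 80845, 94939 and 89526 in lines #1, #3 and #5. Some copies of Rpl15 were also seen mainly in line #10 with DMSO, Gm10020 at 1319.6 and Rpl15-ps2 at 793. In the DMSO libraries of the other lines they had at most 24.4 and 4.96. The larger copy Rpl15-ps3 went the other way, at 7103, 7147, 7049 and 4228 with DMSO in lines #1, #3, #5 and #10. The sum of Rpl15 and its copies was lowest in line #10, at 18796 against 22427, 21320 and 21362. For Rpl11, Gm10288 was listed at 8.50 in line #1 and at 609, 1162 and 1396 in lines #3, #5 and #10 with DMSO. Rpl11 itself was also lowest in line #1 with DMSO, at 15963, so it did not mirror this copy. Whether these lines differ in the sequence of the gene or of its copy was not tested.

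**Figure D4:**
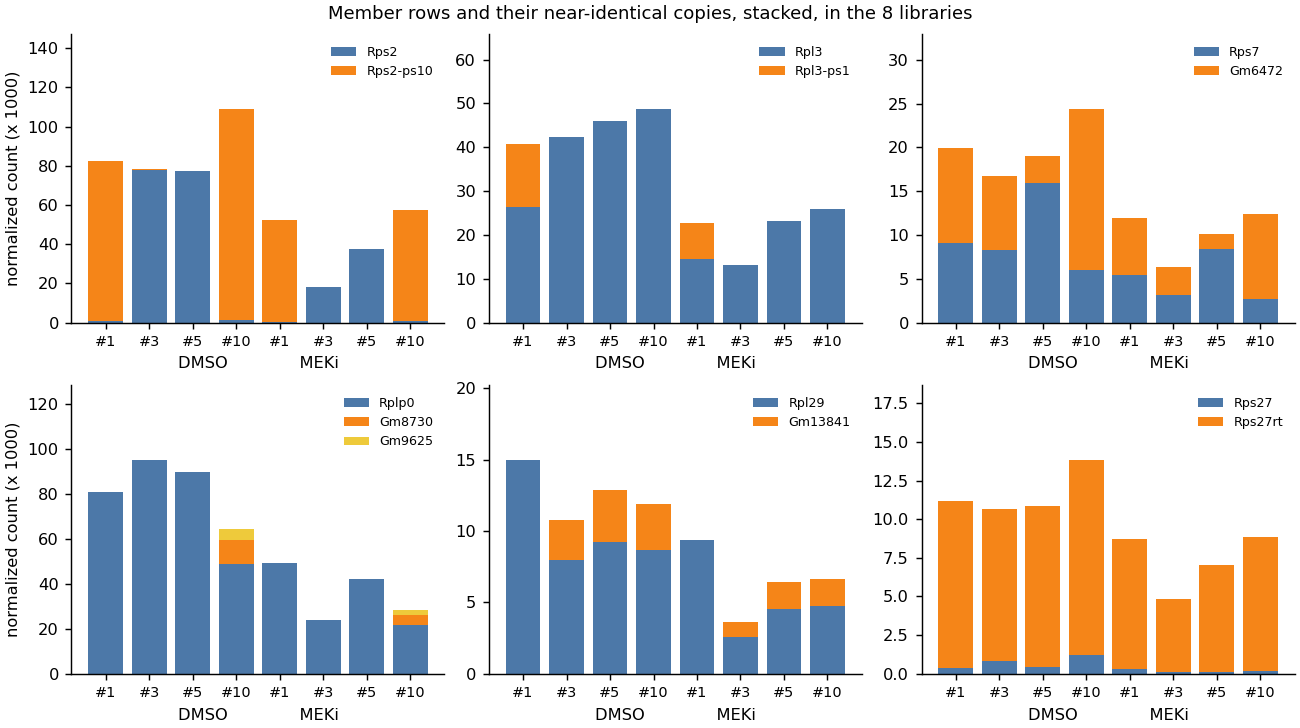
Normalized count (y axis, in units of 1000, from 0) of 6 member genes in blue with their copies stacked in orange and yellow, in the 8 libraries (x axis, lines #1, #3, #5 and #10 with DMSO, then with MEKi). For Rps2 the blue and orange bars change places between lines, Rpl3-ps1 appears in line #1 alone, and Rps27rt holds nearly all of the Rps27 family in every library. The stacked height falls with MEKi in every pair.

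Other copies aligned to the gene without a mismatch and held the larger part of the family in every library. Of the core genes, 50 held at least 90% of their family in each DMSO library, and 7 held less than 50% in all of them: Rpl5, Rpl10, Rpl12, Rpl27a, Rps12, Rps23 and Rps27. The copy Rps27rt, annotated as protein coding on chromosome 9, held 91.0% to 98.3% of the Rps27 family, Rps12-ps3, which aligned over 86.5% of the coding sequence, 90.2% to 93.9% of that of Rps12, Gm15500 85.7% to 92.2% of that of Rpl5 and Gm10275 84.7% to 90.7% of that of Rpl12. Rpl10-ps3 held 76.2% to 82.2% of the Rpl10 family. How much of these counts comes from the copies themselves was not tested. With the copies added, log2 fold changes became -0.69 for Rps27, -1.38 for Rps12, -1.25 for Rpl12 and -0.95 for Rpl5.

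With all copies added, every core gene remained lower with MEKi, at log2 fold changes of -1.38 to -0.69 and adjusted p of at most 0.0061 in limma. The largest coefficient of variation over the DMSO libraries fell from 113% to 24.3%. Line differences were then called for 6 of 78 members, against 27.8% of all genes. These 6 were Rps4l, Rpl24, Rpl35a, Rpl36a, Rps4x and Rpl10, so that Rps2, Rps7 and Rpl29 were no longer called and Rpl10 was called only then. Of the 4 core genes on chromosome X, Rps4x, Rpl36a and Rpl10 were among them. For Rpl10 this holds for the family sum, of which Rpl10-ps3 on chromosome 9 held 76.2% to 82.2%. The row of Rpl10 alone was not called (adjusted p = 0.072 in limma).

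The wider machinery of translation was described by lists, to be read against 25.6% lower and 27.3% higher among all genes tested. Of 8 ribosome genes that the rule on symbols leaves out, such as Rack1, Fau and Rps3a1, 8 were lower, with a median log2 fold change of -0.81. The list also holds Rps27rt, counted above as a copy of Rps27. Rpl36al and Rps3a1 had the largest changes, -1.07 and -0.95. Of 27 translation factors and other genes with known TOP mRNAs, 24 were lower and 0 higher, with a median of -0.83. Npm1, a nucleolar chaperone of ribosome assembly, changed by -1.56, Nap1l1 by -1.48 and the poly(A)-binding protein gene Pabpc1 by -1.33. Of 22 genes for RNA polymerase I and rRNA processing, 21 were lower, with a median of -1.15. Dkc1, the pseudouridine synthase, changed by -2.01, and Ncl, Nop56 and Npm1 by -1.78, -1.57 and -1.56.

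The initiation factors of the cap-binding and eIF2 complexes were lower for 17 of 21 genes and higher for 1, with a median of -0.58. Eif2s1, the eIF2 subunit phosphorylated under stress, changed by -1.05 and the cap-binding Eif4e by -0.89, and the 1 gene that rose was Eif4g3, at 0.74. Of 12 genes listed as chaperones of ribosomal proteins or assembly factors, 8 were lower and 1 higher. Nap1l1, Grwd1 and Tsr2, a chaperone of Rps26, changed by -1.48, -1.37 and -1.29, and Nacad, the gene that rose, by 3.99 from 1.02 to 34.9 normalized counts with DMSO to 28.4 to 444 with MEKi. Of 15 regulators, 9 were lower and 3 higher, the latter a smaller share than the 27.3% of all genes, with a median of -0.44. Myc, a driver of ribosome production, changed by -1.01, Larp1, the binder of TOP mRNAs, by -0.95, and Rps6ka1 and Gabpa by -0.76 and -0.70. The 3 that rose, named after their values were seen, were Rps6kb2 at 0.56, Zfp281 at 0.51 and the RNA polymerase III repressor Maf1 at 0.49.

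The ribosome of mitochondria is built from other genes. Of its 78 protein genes tested, 64 (82.1%) were lower and 0 higher, against 25.6% and 27.3% of all genes, with a median log2 fold change of -0.62. Mrpl12 and Mrpl42 changed most, by -1.23 and -1.21. Its line medians were -0.45, -0.93, -0.61 and -0.48 in lines #1, #3, #5 and #10, with the lowest value in line #3 as for the cytosolic genes. These lists were chosen with earlier results of the same libraries known, and no test between lists was run.

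**Figure D5:**
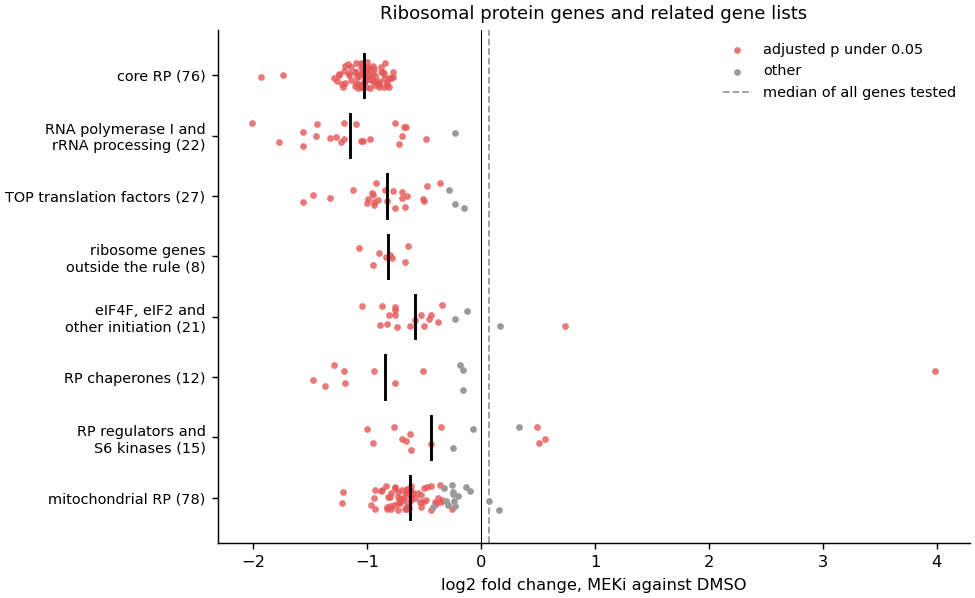
Log2 fold change of MEKi against DMSO (x axis) of each gene in the core ribosomal protein set and in 7 related lists (y axis, number of genes in brackets), in red where the adjusted p was under 0.05 in limma and gray otherwise. Black bars are list medians and the dashed line is the median of all genes tested, 0.07. The core ribosomal protein genes form a narrow cloud around -1.03, while the regulators spread to both sides of 0.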

How the data were processed

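RNA from 8 cultures (4 lines, DMSO or MEKi) was sequenced from stranded poly(A) libraries. The authors deposited 1 normalized count per gene symbol and library, a signal that the authors had already scaled between libraries. The submitters' processing notes name CASAVA 2.17, Salmon 0.12, DESeq2 1.18 and the build mm10, without their roles. Whole reads could not be recovered: 54.1% to 68.5% of low values came within 0.05 reads of a whole number. All 8 columns were used (table of 34478 genes).

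Values were tested as log2(value + 1) with limma 3.58.1 (R 4.3.3), eBayes with trend, the cell line as a block, over 15888 genes with a mean of at least 10, with Benjamini-Hochberg adjustment over all of them and a threshold of 0.05. Fold changes are on that scale, which understates low genes. The pairing comes from the labels: both libraries of a number are the same cell line (correlation of their deviations 0.63 to 0.72 across genes). Line differences were tested with treatment in the model. No label says that lines came from separate mice, so p-values rest on how the change with MEKi varied between these lines. Copies were found with BLAST 2.17.0 after seeing the data. Genes named are those listed at 0 or below the filter, the paralogs, a list of roles, the 5 largest falls, departures from the members' median, the 3 largest spreads of line means and, per other list, the 2 to 4 largest changes called. Further members (Rps7, Rpl11, Rpl12, Rpl15, Rpl24, Rpl27a, Rpl29, Rpl35a, Rpl36a, Rps23) were named after their values were seen. Members and lists were chosen with earlier results of these data known. On simulated data the fit recovered 90 of 90 2-fold and 110 of 110 4-fold changes among 15888 genes and called 11 unchanged genes. The simulated noise had the same SD for every gene, the median residual SD, and no change differed by line. The simulation thus checks that the fit runs correctly and does not measure recovery in the real data. Python 3.11.15, numpy 2.4.6, pandas 2.3.3 and matplotlib 3.10.9 were used. Some items of the genotype and gene lists are not reported here.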

Additional observations from a re-analysis of the deposited data

Results flagged for a closer look

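Within groups of 4 values, 16 of 96 groups had 1 value far from the other three, where chance gives about 1 in 20, or 4.8. Most were the change in line #3: Rpl3 (-1.69, against -0.99 to -0.86 in the others), Rpl39 (-1.39), Rpl41 (-2.14), Rps12 (-2.53), Rps19 (-1.71), Rps27a (-1.80), Rps27l (-1.61), Rps3 (-1.42) and Rps6 (-1.52). The MEKi library of line #3 stood apart likewise for Rpl41 (6446 normalized counts), Rps6 (6391) and the share of the library held by the members (1.63%, against 2.49% to 2.67%). These flags share 1 library and are not independent of each other. The remaining ones had few reads: Rpl10l in line #1 (7.74 normalized counts with DMSO, 0.97 with MEKi and a difference of -2.15 on the log2(value + 1) scale, which is no measure of fold at this depth) and Rpl3l in line #10 with MEKi (3.69).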

How the results depend on the processing

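Under pseudocounts of 0.1 and 5, other filters, other variance models, other scalings, added pseudogenes or copies and each line left out, 77 members were lower and 0 higher. Without the replicate block 74 were lower, against 14.8% of all genes, and the 3 members that were no longer called were Rps2, Rps7 and Rpl29. When libraries were centred on the median of the members, which sets that median to about 0 by construction, 2 members were lower and their median was -0.039. On that scale Rpl10 (0.21), Rpl13a (0.093), Rpl26 (0.051), Rpl38 (0.16), Rpl39 (0.11), Rpl4 (0.037), Rpl5 (0.22), Rplp2 (0.0098), Rps14 (0.092), Rps27l (0.082), Rps3 (0.068) and Rps4x (0.024) were positive. Rescaling to equal totals raised the median of all genes by 0.13 and moved the split of calls among all genes to 3284 lower and 5315 higher (4075 and 4341 as deposited), and the members' median to -0.90. Quantile normalization gave -0.82. With each line left out the members' median was -1.10 to -0.85, the latter without line #3.
The number of members that differed between lines, 8, became 5 with quantile normalization, with centring on the members' median and with no filter. It was 4 to 28 with a line left out, 28 of them without line #3 and 4 without line #1, #5 or #10. The cause was not tested. Rps4l turned negative with a pseudocount of 5 (-0.19) and, over the fits with a line left out, ranged from -0.38 (without line #10) to 0.54, against 0.14. The DMSO share of 4.29% became 4.76% with named pseudogene rows and 5.13% with near-identical copies added. Depth limits Rpl3l, Rpl6l, Rpl10l and, in lines #3 and #10, Rps4l, all with few reads.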
